A study of Mus musculus with 6 samples.

Results

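The endothelial and blood-retina barrier genes examined here were *Cldn5*, *Esam*, *Pecam1*, *Cdh5*, *Tie1*, *Tek*, *Kdr*, *Flt1*, *Mfsd2a* and *Slco1a4*, 10 of the 31169 genes of the count table. They were chosen by symbol from a list of endothelial and tight junction genes, and all 10 passed the filter on low counts that left 17707 genes for testing. The libraries were poly(A) RNA of whole retina from C57BL/6 mice that received 1 µL of fluid into the anterior chamber at 1 month of age and were 2 months old at harvest, 4 weeks later. In 3 libraries the injection was saline, and in the other 3 it held polystyrene microbeads 15 µm in diameter, which block the outflow of aqueous humour and raise intraocular pressure (IOP). The volume is that of the labels, the study's methods state a larger one, and its legend counts more retinas per group than the libraries analysed here. No library carried a transgene or a deletion, and the labels give no IOP for any single retina and do not say whether the libraries of a group came from separate animals, so that the p-values measure the spread between these libraries.

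The vessels of the inner retina are lined by endothelial cells that form the inner blood-retina barrier. Tight junctions between neighbouring cells close the path between them, few vesicles cross the cells, and transporters decide what passes. VEGF, acting through its receptors, and the angiopoietins, acting through Tie receptors, set vessel growth, stability and leak, while Norrin and Wnt signals from retinal cells keep the barrier program on. Endothelial cells are a small share of the retina, so most of these genes are low in whole-retina RNA.

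Total counts ran from 36085737 to 46481382 in the saline libraries and from 13574949 to 19834366 in the microbead libraries, a ratio of medians of 2.40. Mitochondrially encoded genes took 3.19 to 3.57% of the counts after saline and 8.90 to 10.7% after microbeads. The names in the sample descriptions also followed a different series in each group, while the sample titles ran on through both groups. Depth, mitochondrial share and the series of the descriptions cannot be told apart from the injection. Values are given as counts scaled to a common library size of 1000000 (CPM), in the order of replicates 1, 2 and 3 of each group. The smallest count of any of the 10 genes in any library was 29, for *Mfsd2a* in microbead replicate 2, and 3 counts correspond to 0.216 CPM in that library. In whole tissue, fewer endothelial cells and less RNA per cell cannot be told apart.

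After microbead injection 4 of the 10 genes fell: the tight junction gene *Cldn5*, the junction adhesion gene *Esam*, the orphan Tie receptor gene *Tie1* and the VEGF receptor gene *Flt1*. Each was between 1.90-fold and 2.34-fold lower, with an adjusted p-value under 0.05 from edgeR's quasi-likelihood test. Over all tested genes, 6.31% were called lower and 6.46% were called higher by this test. None of the 10 was called higher by edgeR, also at an unadjusted p-value under 0.05, or by DESeq2. At the edgeR share of 6.46%, a list of 10 genes can hold none without being unusual. The fitted log2 fold change was below zero for all 10, with a median of -0.81, beside a median of -0.03 over all tested genes, of which 52.1% were below zero. The calls rested on few libraries: 4 of the 10 were called without saline replicate 1, 1 without saline replicate 3, 2 without microbead replicate 2, and 0 without saline replicate 2, microbead replicate 1 or microbead replicate 3. The share of all genes called lower moved with them, at 7.30%, 4.10% and 1.74% in the first 3 of these fits and 0.867%, 1.96% and 0.104% in the last 3, so the lost calls are not particular to the 10.

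Every microbead library lay below every saline library for 5 genes, the 4 called and the lipid transporter gene *Mfsd2a*. Across all tested genes, 18.9% had this ordering and 18.8% had the opposite one, which none of the 10 showed. At an unadjusted p-value under 0.05, 6 of the 10 were lower, with *Mfsd2a* and *Cdh5* joining the 4, beside 16.2% of all genes. DESeq2 called 5 of the 10 lower, *Mfsd2a* among them, beside 9.60% of all genes. With a change of over 2-fold required as well, edgeR kept *Esam* and *Tie1*, beside 2.79% of all genes. The fold changes of the 10 spanned percentiles 4.33 (*Tie1*) to 36.9 (*Pecam1*) of all tested genes, where low percentiles are the strongest decreases.

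**Figure D1:**
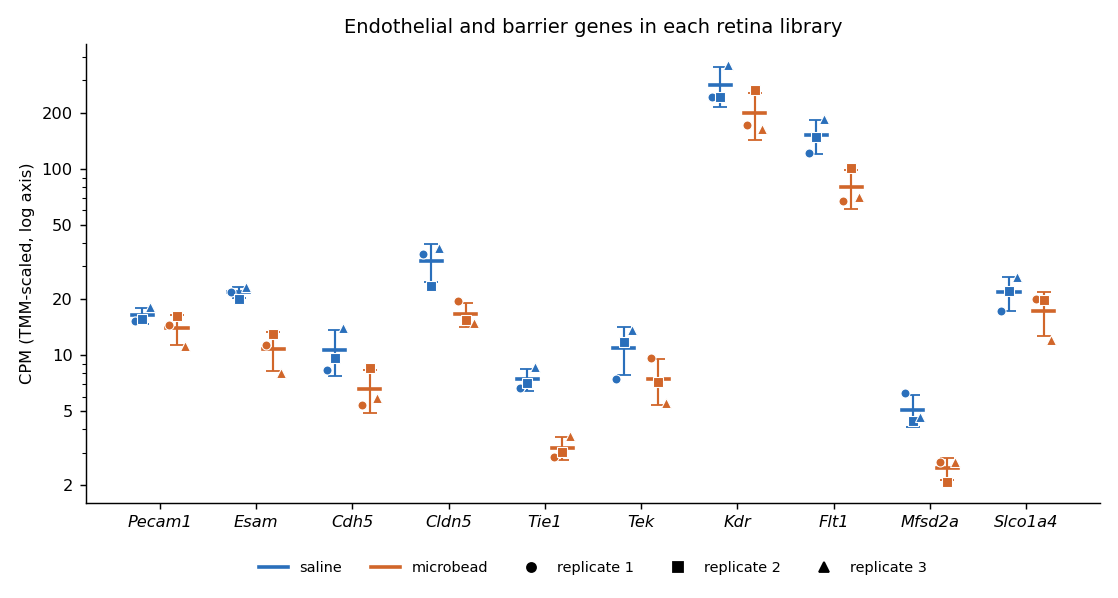
CPM of the 10 genes (log axis) in each library, with saline in blue and microbead in orange. Symbols mark replicates, and horizontal lines and bars give the mean and SD (n = 3 per group). The groups do not overlap for *Esam*, *Cldn5*, *Tie1*, *Flt1* and *Mfsd2a*, and overlap for the other 5.

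Among the junction and adhesion genes, *Cldn5* encodes claudin-5, the main claudin of the strand that seals blood-retina barrier endothelium. It is a gene of 1 exon on chromosome 16 (GRCm38, 18776847 to 18778262, plus strand). *Cldn5* was at 35.0, 23.6 and 37.5 CPM after saline and at 19.5, 15.5 and 15.0 CPM after microbeads, or 32.0 ± 7.38 against 16.7 ± 2.46 (SD, n = 3). The microbead values lay in a narrow range below the lowest saline value, which was that of replicate 2. This gave a log2 fold change of -0.94 with a standard error of 0.23 (95% interval -1.45 to -0.43, adjusted p = 0.0297). It stayed between -1.12 and -0.81 with any 1 library left out, but the call held only without saline replicate 1.

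*Esam* encodes an adhesion molecule found at endothelial tight junctions and on platelets, and lies on chromosome 9 (37528078 to 37538319, plus strand). Its levels were 21.9, 20.1 and 23.2 CPM in the saline libraries and 11.4, 13.0 and 7.98 CPM in the microbead libraries. The saline libraries agreed closely, with a coefficient of variation of 7.12%, and the highest microbead value was still 1.55-fold below the lowest saline value. The log2 fold change was -1.01 with a standard error of 0.23 (adjusted p = 0.0250). *Esam* was called in 3 of the 6 fits that left out a library, more than any other of the 10 genes, and lost its call without saline replicate 2, microbead replicate 1 or microbead replicate 3.

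*Pecam1*, on chromosome 11 (106654217 to 106750628, minus strand), encodes CD31, an adhesion molecule spread over the endothelial border and a common vessel marker. It was at 15.3, 15.6 and 18.3 CPM after saline and at 14.5, 16.2 and 11.2 CPM after microbeads. The groups overlapped: microbead replicate 3 stood well below the saline range, replicate 1 just below it and replicate 2 within it. Its log2 fold change of -0.23 (standard error 0.22, 95% interval -0.71 to 0.25, adjusted p = 0.498) was the smallest of the 10, and the interval leaves room for a decrease of the size seen in *Cdh5* but not in *Cldn5*.

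*Cdh5*, on chromosome 8 (104101625 to 104144511, plus strand), encodes VE-cadherin, the adhesion protein of endothelial adherens junctions. The saline libraries held 8.36, 9.65 and 14.0 CPM and the microbead libraries 5.40, 8.58 and 5.91 CPM. Microbead replicate 2 lay above saline replicate 1, and saline replicate 3 was far above the rest. Its log2 fold change of -0.69 (standard error 0.30) had an unadjusted p of 0.0425 and did not pass after adjustment (adjusted p = 0.144).

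The Tie receptors are tyrosine kinases of endothelial cells. *Tek* encodes Tie2, the receptor that binds angiopoietins, while the product of *Tie1* binds none by itself and modulates Tie2 in a shared complex. Both genes are on chromosome 4, *Tie1* from 118471191 to 118490061 (minus strand) and *Tek* from 94739289 to 94874976 (plus strand). *Tie1* was at 6.63, 7.13 and 8.61 CPM after saline and at 2.83, 3.03 and 3.70 CPM after microbeads. No microbead value came within 1.79-fold of the lowest saline value, the widest gap of the 10 genes. Its log2 fold change was -1.23 with a standard error of 0.28 (95% interval -1.86 to -0.60, adjusted p = 0.0262). *Tie1* stayed between -1.36 and -1.11 with any library left out, although the call held only without saline replicate 1.

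*Tek* was at 7.46, 11.8 and 13.6 CPM in the saline libraries and at 9.67, 7.21 and 5.52 CPM in the microbead libraries. The groups overlapped, since saline replicate 1 lay below microbead replicate 1. For *Tek* the log2 fold change was -0.55 with a standard error of 0.31 (95% interval -1.24 to 0.14, adjusted p = 0.254). Without microbead replicate 1 it was at -0.79, and without saline replicate 3 at -0.37, the ends of its range.

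Of the VEGF receptors, *Kdr* (VEGFR2) carries most of the mitogenic signal, while *Flt1* (VEGFR1) binds VEGF tightly, signals weakly and has a soluble form that traps the ligand. *Kdr* transcripts are also known from some retinal neurons. Both lie on chromosome 5 on the minus strand, *Kdr* from 75932827 to 75978458 and *Flt1* from 147561604 to 147726011. *Flt1* was at 121.5, 149.3 and 184.9 CPM after saline and at 67.6, 101.8 and 70.7 CPM after microbeads. The groups were apart, but by little, with microbead replicate 2 at 1.19-fold below the lowest saline value. The log2 fold change was -0.93 with a standard error of 0.23 (adjusted p = 0.0310), and *Flt1* was called in 2 of the 6 fits with a library left out, those without saline replicate 1 or microbead replicate 2. The counts were taken per gene and do not separate the membrane and soluble forms.

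*Kdr* had the highest level of the 10 genes, at 244.2, 242.3 and 362.6 CPM in the saline libraries and 172.2, 265.8 and 163.5 CPM in the microbead libraries. Microbead replicate 2 lay above saline replicates 1 and 2, so the groups overlapped. The log2 fold change of -0.50 (standard error 0.25, 95% interval -1.05 to 0.05, adjusted p = 0.199) did not pass the test.

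The transporters of the list are *Mfsd2a*, whose product carries lysophosphatidylcholine with docosahexaenoic acid into neural tissue and holds down vesicle transport across the endothelium, and *Slco1a4*, whose product is an organic anion transporter of barrier vessels. *Mfsd2a* lies on chromosome 4 (122946850 to 122961188, minus strand) and *Slco1a4* on chromosome 6 (141805440 to 141856199, minus strand). *Mfsd2a* was at 6.24, 4.43 and 4.65 CPM after saline and at 2.67, 2.09 and 2.66 CPM after microbeads. All microbead values were at least 1.66-fold below the lowest saline value. The log2 fold change was -1.04 with a standard error of 0.32, and the adjusted p was 0.0589 with edgeR and 0.0278 with DESeq2. A correction for the GC content and length of genes also brought *Mfsd2a* past the threshold, at a log2 fold change of -1.24 (adjusted p = 0.0203). With that correction edgeR called 10.3% of all genes lower. With a block for the replicate number added to it, *Mfsd2a* did not pass (adjusted p = 0.0547).

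*Slco1a4* was at 17.2, 22.2 and 26.3 CPM in the saline libraries and at 20.0, 19.9 and 12 CPM in the microbead libraries. Microbead replicates 1 and 2 lay within the saline range, and only replicate 3 was below it. The log2 fold change was -0.34 (standard error 0.26, 95% interval -0.91 to 0.23, adjusted p = 0.394). Of the 100-base stretches of its transcripts, 0.64% also occur in transcripts of another locus, and none do for the other 9 genes. No exon of the 10 genes overlaps an exon of another gene on either strand.

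**Figure D2:**
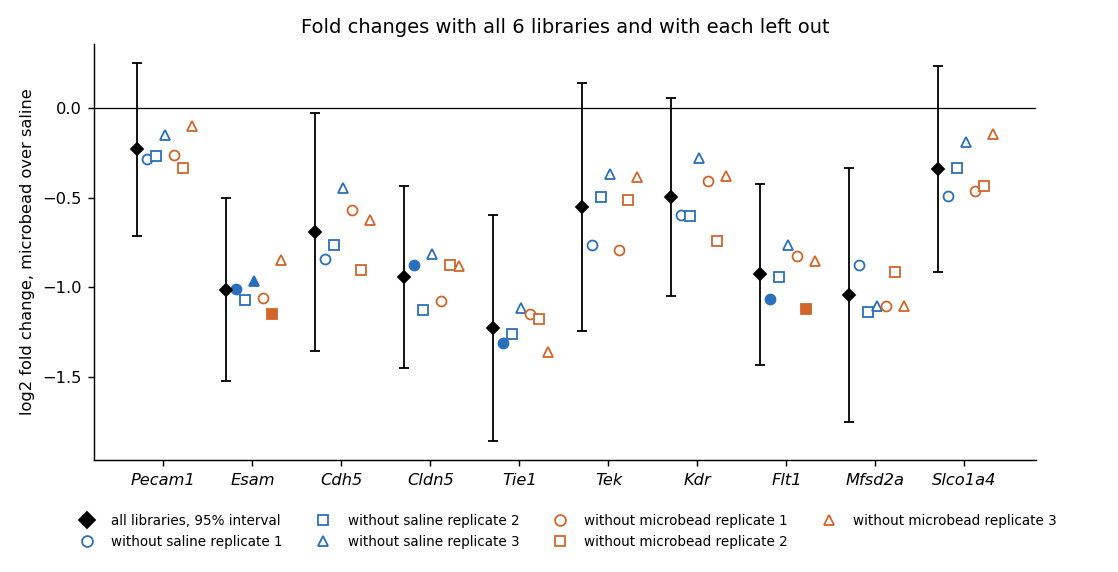
Log2 fold change of microbead over saline for the 10 genes with all libraries (black diamonds with 95% intervals) and with each library left out (blue where a saline library, orange where a microbead library was left out; filled symbols have an adjusted p under 0.05). All symbols lie below zero, and few are filled: 1 for *Cldn5*, 3 for *Esam*, 1 for *Tie1* and 2 for *Flt1*.

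Levels of different genes were compared per kilobase of annotated exon. In the saline libraries *Kdr* was highest at 31.4 ± 7.63 CPM per kilobase and *Cldn5* followed at 22.6 ± 5.21 (SD, n = 3), within the spread of each other. *Flt1* came next at 11.3 ± 2.35 CPM per kilobase, then *Esam* at 7.58 ± 0.54 and *Slco1a4* at 3.41 ± 0.71, each beyond the SD ranges of its neighbours above. *Pecam1* (2.63 ± 0.26), *Cdh5* (2.54 ± 0.71), *Tek* (2.32 ± 0.67) and *Mfsd2a* (2.27 ± 0.44) did not differ beyond their spread, nor did *Slco1a4* and *Pecam1*. *Tie1* was lowest at 1.52 ± 0.21 CPM per kilobase, below the SD range of *Mfsd2a*, though its own range reached into that of *Tek*. In the microbead libraries the order was the same except that *Tek* (1.58 ± 0.44) and *Cdh5* (1.58 ± 0.41), which were equal within their spread, changed places, and *Kdr* at 22.2 ± 6.28 then stood beyond the SD range of *Cldn5* at 11.8 ± 1.74 CPM per kilobase. *Flt1* (5.92 ± 1.40) and *Esam* (3.76 ± 0.89 CPM per kilobase) no longer differed beyond their spread there, nor did *Esam* and *Slco1a4* (2.70 ± 0.71). *Tie1* was again the lowest, at 0.648 ± 0.093 CPM per kilobase. The exons of all annotated transcripts were merged for these lengths, so that a gene mostly read from a short transcript is understated.

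Since genes of similar role differed in whether they passed the test, ratios were taken within each library, where depth and scaling cancel. The 5 pairs were picked after the values were seen, and with 3 libraries per group a two-sided exact permutation test cannot give a p below 0.1. The ratio of *Esam* to *Pecam1* was 1.44, 1.28 and 1.27 after saline and 0.784, 0.800 and 0.715 after microbeads. *Esam* was thus above *Pecam1* in every saline library and below it in every microbead library in CPM, with an exact permutation p of 0.1 (n = 3 per group), or 0.25 adjusted over the 5 pairs. The ratio of *Flt1* to *Kdr* also did not overlap, at 0.498, 0.616 and 0.510 after saline and 0.392, 0.383 and 0.432 after microbeads, with the same p of 0.1 and adjusted p of 0.25 in the exact permutation test.

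The other 3 ratios overlapped between the groups. *Tie1* to *Tek* was 0.890, 0.604 and 0.633 after saline and 0.293, 0.420 and 0.671 after microbeads, where microbead replicate 3 lay within the saline range (exact permutation p = 0.3, adjusted p = 0.375). *Mfsd2a* to *Slco1a4* ran from 0.177 to 0.362 after saline and from 0.105 to 0.222 after microbeads (exact permutation p = 0.3, adjusted p = 0.375). *Cldn5* to *Cdh5* ran from 2.45 to 4.19 and from 1.81 to 3.61 (exact permutation p = 0.5, adjusted p = 0.5). Since the design could not reach the threshold for any pair, these tests do not decide whether the paired genes differed in response, and the ratios stand as a description.

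**Figure D3:**
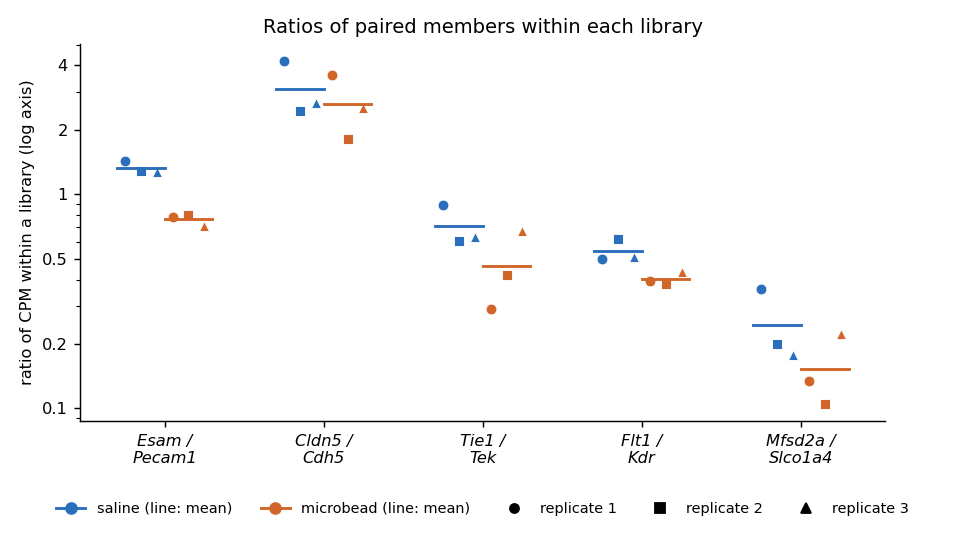
Ratio of the CPM of paired genes within each library (log axis), saline in blue and microbead in orange, with symbols for replicates and lines for group means (n = 3). The groups are apart for *Esam* to *Pecam1* and *Flt1* to *Kdr* and overlap for the other 3 ratios.

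The summed level of the 10 genes was 483.8, 506.2 and 693.5 CPM after saline and 325.6, 453.1 and 298.1 CPM after microbeads, a microbead mean at 64.0% of the saline mean. The microbead values all lay below the saline ones, and most of the sum is *Kdr* and *Flt1*. Saline replicate 3 was the highest of its group for 9 of the 10 genes and microbead replicate 3 the lowest of its group for 6. Without saline replicate 3 the median log2 fold change of the 10 genes was -0.61 in place of -0.81. Deviations from the group mean were shared by many of the genes across the 6 libraries. Of the 10, 7 had a Pearson correlation above 0.5 with the mean deviation of the others in the list (median 0.73). Of the genes outside the list, 18.6% had one above 0.5 with the mean deviation of all 10. Other lists showed the same against that mean. A correlation above 0.5 was held by 66.7% of the Müller glia genes (median 0.76), 90% of the pigment epithelium and choroid genes and 50% of the other endothelial genes. The shared deviation is thus not particular to the 10.

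The tested genes outside the list with deviations most like that mean, by Pearson correlation over 6 libraries and at a mean of at least 5 CPM, were *Car14* (0.998), *Arcn1* (0.996), *Ccng1* (0.995), *Spsb4* (0.993), *Nampt* (0.993), *Uqcrc2* (0.991), *Met* (0.990), *Dnajb6* (0.987), *Kat2b* (0.987) and *Cmpk2* (0.983). None of these belongs to the vessel or cell type lists below, although single genes of those lists reached 0.976 (Müller glia), 0.965 (pigment epithelium and choroid), 0.955 (barrier transport) and 0.947 (other endothelial). With 6 libraries and 2 group means removed, 220 of 11830 genes had a correlation above 0.9, so the ranking is a description only.

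Other endothelial genes were described in the same way. Of 24 further endothelial identity genes, 3 fell and 0 rose, and 21 did not pass (6 lower and 0 higher at an unadjusted p under 0.05, and 6 lower and 0 higher with DESeq2), with a median log2 fold change of -0.13. The list was split in direction, with 14 log2 fold changes below zero and 10 above, from -1.73 to 0.81. The genes that fell were *Vwf*, for the clotting factor stored in endothelial cells, at -1.73 (adjusted p = 0.0227), *Ptprb*, for the phosphatase VE-PTP that acts on Tie2 and VE-cadherin, at -1.25 (adjusted p = 0.0296), and *Pltp*, for a phospholipid transfer protein, at -1.24 (adjusted p = 0.0188). *Podxl*, for the surface sialomucin podocalyxin and the most abundant of this list, had a log2 fold change of -0.14 (adjusted p = 0.696). The sum of the 24 genes was 501.9, 502.8 and 516.6 CPM after saline and 403.7, 459.1 and 407.1 CPM after microbeads. Saline replicate 3 was highest in this sum too, but stood less apart than for the 10 genes. *Podxl*, the largest part of the sum, was lowest of the saline group in that library, at 229.2, 203.3 and 161.6 CPM after saline. With *Podxl* taken out, the rest of the list was also highest in saline replicate 3, by more than in the whole sum. The 10 genes amounted to 96.4, 100.7 and 134.2% of the sum of these 24 after saline, and to 80.7, 98.7 and 73.2% after microbeads, which overlapped.

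Among 17 endothelial transcription factor genes, 2 fell and 0 rose (5 and 0 at an unadjusted p under 0.05, and 3 and 0 with DESeq2), with a median of -0.31. *Klf2*, a factor induced by blood flow in endothelium, was at 8.84, 5.68 and 31.7 CPM after saline and 2.52, 2.81 and 2.60 CPM after microbeads. Its log2 fold change of -2.54 (adjusted p = 0.0268) came to -1.46 without saline replicate 3, with an adjusted p of 0.0291. *Klf4*, a related factor, had a log2 fold change of -1.76 (adjusted p = 0.0477) and one of -1.03 without that library, where it no longer passed (adjusted p = 0.124). *Epas1*, for the hypoxia-inducible factor HIF-2α, was the most abundant at a log2 fold change of -0.03 (adjusted p = 0.939).

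Of 15 other junction genes, 1 fell and 1 rose (4 and 2 at an unadjusted p under 0.05, and 1 and 1 with DESeq2). *Ctnnd1*, for p120-catenin, which holds VE-cadherin at the membrane, was at 16.7, 12.3 and 9.86 CPM after saline and at 32.5, 28.4 and 31.0 CPM after microbeads, without overlap. This was a log2 fold change of 1.24 (adjusted p = 0.0151), and the gene was called in 4 of the 6 fits with a library left out. *Ctnnb1*, for β-catenin, fell by 0.80 on the log2 scale (adjusted p = 0.0340). *Ocln*, for the tight junction protein occludin, was at 5.09, 4.64 and 4.85 CPM after saline and at 2.31, 2.96 and 3.12 CPM after microbeads, but its log2 fold change of -0.80 did not pass (adjusted p = 0.103). *Tjp1*, for the scaffold ZO-1, had a log2 fold change of -0.06 (adjusted p = 0.907). Neither catenin is restricted to vessels in a whole retina.

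Of 19 other barrier transport genes, 3 fell and 0 rose (9 and 0 at an unadjusted p under 0.05, and 5 and 0 with DESeq2), with a median of -0.52. These were *Tfrc*, for the transferrin receptor, at -0.98 (adjusted p = 0.0254), *Slc7a5*, for the large neutral amino acid transporter LAT1, at -0.76 (adjusted p = 0.0399), and *Slc16a1*, for the lactate carrier MCT1, at -0.70 (adjusted p = 0.0390). Other retinal cells carry these transporters too. *Slc6a6*, for the taurine transporter and the most abundant of the list, had a log2 fold change of -0.35 (adjusted p = 0.252). *Plvap*, a protein of fenestrated and leaky vessels that the closed barrier lacks, was at 13.2, 7.64 and 8.64 CPM after saline and at 16.5, 11.8 and 16.0 CPM after microbeads. The groups overlapped and its log2 fold change of 0.59 (standard error 0.27, adjusted p = 0.165) did not pass.

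Of the ligands and other receptors of these pathways, 15 of 17 were tested and edgeR called 0 in either direction (0 lower and 1 higher at an unadjusted p under 0.05, and 0 with DESeq2). *Vegfa*, the ligand of both *Kdr* and *Flt1* products, was at 134.5, 107.0 and 93.5 CPM after saline and at 137.5, 162.7 and 168.1 CPM after microbeads. The groups did not overlap, although saline replicate 1 was close to microbead replicate 1, and the log2 fold change of 0.48 (standard error 0.19) did not pass (adjusted p = 0.115). *Vegfb*, a ligand of VEGFR1, had a log2 fold change of 0.04 (adjusted p = 0.931). *Pgf*, for placental growth factor, another ligand of VEGFR1, was at 10.6, 1.08 and 1.08 CPM after saline and between 0.925 and 1.49 CPM after microbeads, so that its log2 fold change of -1.72 (adjusted p = 0.200) rested on saline replicate 1 and was 0.24 without it. *Angpt1*, the activating ligand of Tie2, was at 2.26, 1.45 and 1.91 CPM after saline and at 0.617, 1.37 and 1.30 CPM after microbeads (log2 fold change -0.78, adjusted p = 0.279). *Angpt2*, its context-dependent antagonist, had a log2 fold change of -0.48 (adjusted p = 0.357).

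In the Norrin and Wnt pathway 12 of 13 listed genes were found in the table and tested, of which 1 fell and 0 rose (3 and 0 at an unadjusted p under 0.05, and 2 and 0 with DESeq2). *Adgra2*, for the receptor GPR124 that relays Wnt7 signals to brain endothelium, was at 60.1, 62.2 and 69.0 CPM after saline and at 25.4, 30.5 and 30.2 CPM after microbeads. Its log2 fold change of -1.15 (standard error 0.17, adjusted p = 0.0101) was called in 5 of the 6 fits with a library left out, the most of any gene named here. The Norrin gene *Ndp* had a log2 fold change of -0.34 (adjusted p = 0.355), its receptor gene *Fzd4* one of -0.09 (adjusted p = 0.817), and the coreceptor genes *Lrp5* and *Lrp6* ones of -0.56 (adjusted p = 0.213) and 0.00 (adjusted p = 0.990). *Tspan12*, for the tetraspanin of this receptor complex, had a log2 fold change of -0.30 (adjusted p = 0.577).

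None of the genes that fell or rose in the lists outside the 10 kept its call in all 6 fits with a library left out, and all of them lost it without microbead replicate 3. *Adgra2* lost it in that fit alone. *Vwf* also lost it without microbead replicate 1, *Ctnnd1* without saline replicate 2, and *Klf2* without microbead replicates 1 or 2. *Ptprb*, *Pltp*, *Tfrc* and *Pdgfrb* were called in 2 of the 6 fits, *Klf4*, *Ctnnb1*, *Slc16a1* and *Notch3* in 1, and *Slc7a5* in 0, although the fitted changes kept their direction in all 6.

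**Figure D4:**
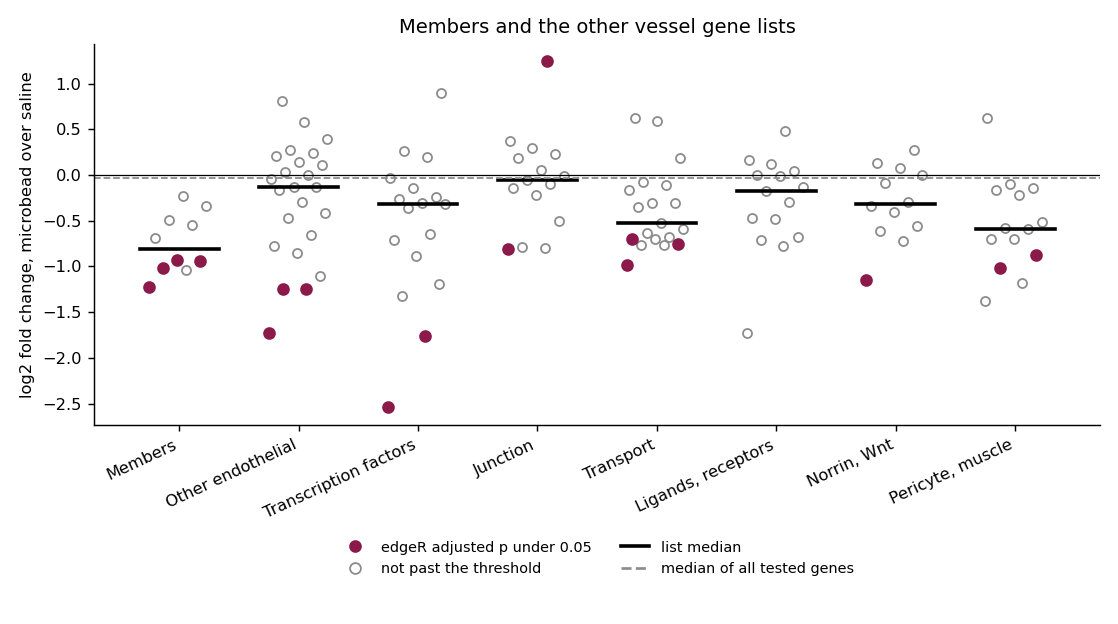
Log2 fold change of microbead over saline for each tested gene of the 10 and of 7 other vessel lists. Filled symbols have an edgeR adjusted p under 0.05, black lines are list medians and the dashed line is the median of all tested genes. The 10 genes lie below zero with a median of -0.81, while the 7 other lists drawn reach both sides of zero.

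Genes of the cells around and outside the vessels moved as follows. Of 14 pericyte and smooth muscle genes, 2 fell and 0 rose, *Notch3* at a log2 fold change of -1.02 (adjusted p = 0.0477) and *Pdgfrb*, for the receptor that recruits pericytes, at -0.87 (adjusted p = 0.0377), with a list median of -0.59 and 13 of 14 log2 fold changes below zero (4 lower and 0 higher at an unadjusted p under 0.05, and the same counts with DESeq2). *Vtn*, for vitronectin and the most abundant of them, had a log2 fold change of -0.14 (adjusted p = 0.633). It held 1008 of the 1224 CPM in the saline mean of the list sum, so that sum mostly follows *Vtn*. Per kilobase *Vtn* was at 496 CPM after saline, beside 27.9 CPM or less for the rest of the list. Which cells its transcripts came from was not tested. Of 12 Müller glia genes, 4 fell and 0 rose, *Sox9* at -1.46, *Crym* at -1.41, *Dkk3* at -1.03 and *Vim* at -0.79 (adjusted p = 0.0373, 0.0387, 0.0242 and 0.0438), with *Glul*, the most abundant, at -0.31 (adjusted p = 0.491). As for the 10 genes, all 12 Müller glia log2 fold changes were below zero, from -1.46 to -0.12 with a median of -0.42, and 5 were lower at an unadjusted p under 0.05 and 4 with DESeq2. Without saline replicate 3, however, *Glul* had a log2 fold change of 0.05 (adjusted p = 0.904), while the 10 genes all stayed below zero. The Müller glia sum was 7747, 7140 and 10831 CPM after saline and 6895, 6762 and 5505 CPM after microbeads, without overlap, highest in saline replicate 3 and lowest in microbead replicate 3, as for the 10 genes. The gap was narrow, and *Glul*, the largest part of the sum, overlapped between the groups. Without saline replicate 3 the log2 ratio of this sum was -0.22 in place of -0.42. Pigment epithelium and choroid genes, a sign of how cleanly the retina was dissected, summed to 16.5, 64.0 and 268.3 CPM after saline and 155.5, 128.0 and 143.3 CPM after microbeads. Saline replicate 3 was again highest, all 10 of these genes had counts in at least 1 library of each group, and edgeR called 0 of them (0 lower and 1 higher at an unadjusted p under 0.05, and 0 lower and 1 higher with DESeq2). *Ttr*, the most abundant of them, had a log2 fold change of 0.38 (adjusted p = 0.772), and one of 2.00 without saline replicate 3 (adjusted p = 0.0398).

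Red cell genes, which mark blood left in the vessels, summed to 18.3, 41.6 and 16.1 CPM after saline and 38.9, 10.9 and 19.3 CPM after microbeads, and the groups overlapped. Of 6 red cell genes 5 were tested and edgeR called 0, also at an unadjusted p under 0.05 and with DESeq2, *Slc4a1* was at 0 in 4 libraries, and *Hbb-bs*, the most abundant, had a log2 fold change of 0.04 (adjusted p = 0.967). Of 10 microglia genes edgeR called 0 (3 lower and 0 higher at an unadjusted p under 0.05, and 3 lower and 0 higher with DESeq2), with *Ctss*, the most abundant, at -0.32 (adjusted p = 0.735), and their sum was 310.6, 79.4 and 117.5 CPM after saline and 171.9, 149.9 and 68.3 CPM after microbeads. Of 9 rod genes, 1 fell and 0 rose (3 and 0 at an unadjusted p under 0.05, and 2 and 0 with DESeq2), *Nrl* at -0.97 (adjusted p = 0.0192), with *Gnat1*, for rod transducin and the most abundant, at 0.37 (adjusted p = 0.256). With a library left out, *Crym* and *Nrl* were called in 3 of the 6 fits, *Sox9* and *Dkk3* in 2, and *Vim* in 0. The rod sum ran from 32214 to 40892 CPM after saline and from 31302 to 38719 CPM after microbeads, the defining signal of retinal tissue in every library. The part of these other cells, of depth and of saline replicate 3 in the falls of the 10 genes was not tested, apart from the fits without single libraries given above.

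**Figure D5:**
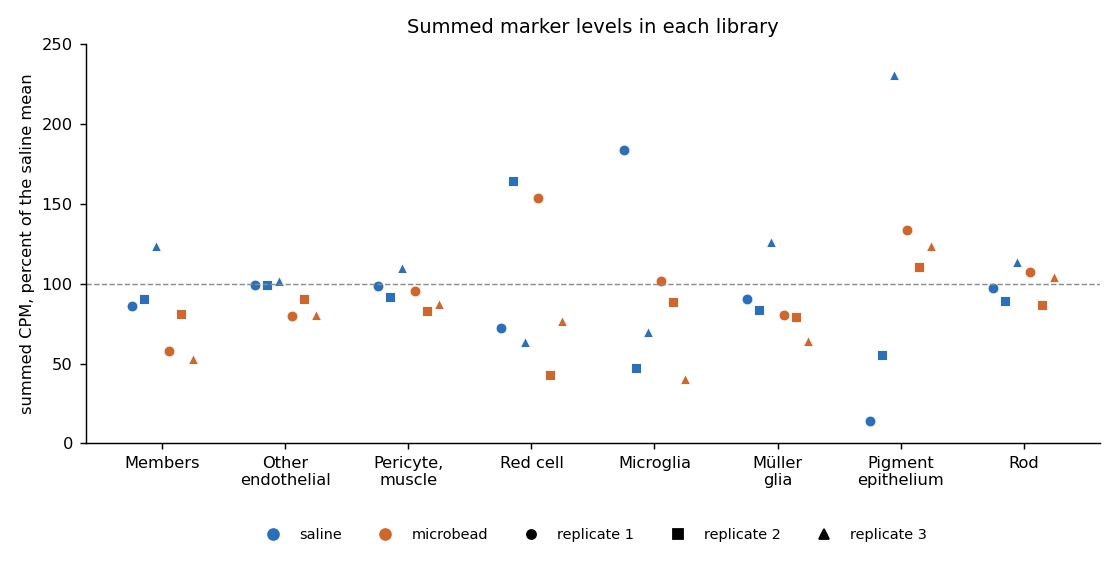
Summed CPM of each marker list in every library, as a percent of its saline mean (dashed line at 100), saline in blue, microbead in orange, with symbols for replicates. The 3 microbead libraries lie below all saline libraries for the 10 genes, the other endothelial genes and the Müller glia genes. Saline replicate 3 stands highest for every list drawn except the red cell and microglia genes.

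Promoter windows from RefSeq (GRCm38.p6, 250 bases before to 50 after the start) were found for 7 of the 10 genes, *Cldn5*, *Flt1*, *Kdr*, *Mfsd2a*, *Slco1a4*, *Tek* and *Tie1*. The upstream 250 bases are shown for *Cldn5* and *Flt1*, which fell, and for *Tek*, which did not pass and holds the SOX letters, each 5′ to 3′ on its own strand, with a matched motif in capitals. They are *Cldn5* at chr16:18776597-18776846 (plus strand, 59.6% GC), *Flt1* at chr5:147726012-147726261 (minus strand, 70.4% GC) and *Tek* at chr4:94739039-94739288 (plus strand, 51.2% GC).
Cldn5: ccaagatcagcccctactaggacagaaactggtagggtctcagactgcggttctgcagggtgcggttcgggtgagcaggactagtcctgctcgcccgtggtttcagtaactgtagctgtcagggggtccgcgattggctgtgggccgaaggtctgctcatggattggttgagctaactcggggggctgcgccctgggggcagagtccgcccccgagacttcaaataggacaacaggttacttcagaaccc
Flt1: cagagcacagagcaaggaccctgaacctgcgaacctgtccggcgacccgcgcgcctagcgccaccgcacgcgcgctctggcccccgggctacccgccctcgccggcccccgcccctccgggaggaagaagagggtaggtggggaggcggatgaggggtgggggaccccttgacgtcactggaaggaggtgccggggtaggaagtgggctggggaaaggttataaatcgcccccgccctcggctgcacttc
Tek: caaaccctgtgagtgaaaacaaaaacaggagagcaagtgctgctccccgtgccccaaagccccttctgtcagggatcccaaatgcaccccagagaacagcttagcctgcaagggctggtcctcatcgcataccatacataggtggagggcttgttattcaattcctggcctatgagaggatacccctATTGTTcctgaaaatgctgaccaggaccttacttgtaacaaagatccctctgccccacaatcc

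Exact letters of 4 factor families known in endothelium were searched on both strands of the windows. The ETS letters CCGGAAGT or CAGGAAGT occurred in 0 of the 7 windows and in 7.07% of all 32851 promoter windows. The SOX letters AACAAT occurred in *Tek*, on the minus strand at position -63 from the start, where they read ATTGTT, and in *Slco1a4* at position -145, beside 10.7% of all windows. The GATA letters AGATAA occurred in *Tek* at position 37, past the upstream stretch shown, beside 11.2% of all windows, and the FOX letters TGTTTAC in 0 of the 7, beside 3.65%. Neither *Cldn5* nor *Flt1* held any of the 4 in its window. No 2 of these motifs contain each other, and a match or its absence describes only these letters in these windows.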

How the data were processed

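Sequencing of poly(A) RNA covered 3 saline and 3 microbead libraries of whole retina, grouped by the treatment label. Per the labels and the study's methods, the authors aligned 100-base paired reads with STAR 2.5.3a to GRCm38.p5 and counted them per gene with featureCounts 1.15.2; use of strand and treatment of multiply mapped reads are not given in the sources used here. The deposited counts are raw, whole numbers for each gene. The same table holds columns of the authors' own DESeq2 1.14 comparison (mean, fold change, p-values and calls), which were not used.

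Genes were kept by filterByExpr at its defaults (count 10, total 15), and counts were scaled by TMM and tested in R 4.3.3 with edgeR 4.0.16 (glmQLFit and glmQLFTest, two-sided). P-values were adjusted over 17707 genes by the method of Benjamini and Hochberg, and a gene was called at an adjusted p under 0.05. CPM are counts at a TMM-scaled library size of 1000000. Standard errors were taken as the absolute log2 fold change over the square root of F. Positions, exons and lengths came from a GENCODE annotation of GRCm38 that covers 99.6% of the tested genes. Ratios were compared with an exact permutation test. Alternatives changed the scaling (RLE, mitochondrially encoded genes left out, or the 100 most abundant genes left out of library sizes), the filter (none, or 10 counts required in each library), the tool (DESeq2 1.42.0, or voom of limma 3.58.1), the threshold (a change of over 2-fold required as well) and the design (a block for the replicate number, a spline correction for GC content and length with 5 degrees of freedom, both together, and each library left out). Of these steps, only the fits of edgeR, DESeq2 and limma-voom and the correction for GC content and length were tested on simulated counts.

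Besides the 10 genes, the text names fixed ligands and pathway genes, up to 4 called genes of each list with the largest change, the most abundant gene of each list, and the 10 genes most alike. Some genes of the microglia and rod lists are not reported here and are left out of the counts and sums. The 10 genes, lists and rules were chosen with earlier results of these data known. Totals ran from 13574949 to 46481382 counts, and limits of 3 counts cover counting error only. No library was a copy of another: the chi-square between libraries of a group was 20.7 per degree of freedom or more, where sampling noise gives about 1.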

Additional observations from a re-analysis of the deposited data

How the results depend on the processing

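For the 10 genes no alternative turned a direction, and all 10 fitted log2 fold changes stayed below zero in all 16 alternative fits. Of the values of these genes under an alternative, 136 kept their side of the threshold, 22 lost it and 2 (*Mfsd2a* with DESeq2, or once GC content and length were corrected for) passed it. The values given in the report were 4 genes called lower, 2261 calls over all genes and a median of -0.81. The count of the 10 called lower was 4 with RLE scaling, without mitochondrially encoded genes, without the 100 most abundant genes, with limma-voom and under both filters, 5 with DESeq2 and with the GC correction, 3 with the GC correction and the block, and 2 with over 2-fold required. With libraries left out in turn it ran from 0 to 4, the median from -0.89 to -0.61 and the calls over all genes from 46 (without microbead replicate 3) to 2621. Calls over all genes were 3720 without a filter, 3582 with DESeq2 and 1248 with over 2-fold required, and 3140 with the GC correction.

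The labels number the libraries 1 to 3 in both groups. With the replicate number as a block, 905 genes and 0 of the 10 were called, with adjusted p-values from 0.0535 to 0.532 and 5 of the 10 lower at an unadjusted p under 0.05. Deviations of same-numbered libraries correlated at -0.04, 0.14 and 0.01, and not every library correlated best with its own number. These values gave no sign of a pairing by number, but with 3 libraries per group they cannot exclude one. Only the summed pigment epithelium and choroid level moved by more than the replicate spread among list sums, to a log2 ratio of 1.82 without saline replicate 3. The cause of these changes was not tested. Depth limits *Mfsd2a* and *Tie1* most, with the fewest counts in the microbead libraries.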
